A study of Homo sapiens with 34 samples.

Results

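The DNA sites bound by full-length TFE3 were compared with those bound by YAP-TFE3, a fusion that keeps the DNA-binding end of TFE3. The comparison asked which TFE3 sites were also found with the fusion, at which position and at which strength. It covered 299 TFE3 peaks and 3336 YAP-TFE3 peaks on chromosomes 1 to 22 and X, that is 3635 of the 10414 peaks in the 7 deposited lists. A TFE3 peak was called kept if it shared at least 1 bp with a YAP-TFE3 peak, and not kept otherwise.

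TFE3 belongs to the MiT/TFE family of basic helix-loop-helix leucine zipper transcription factors. These proteins bind DNA as dimers at E-box type sequences, and are known for driving genes of lysosome biogenesis and the response to nutrients. YAP, the coactivator at the end of the Hippo pathway, has no DNA-binding domain and reaches chromatin through TEAD factors. YAP-TFE3, a fusion protein of epithelioid hemangioendothelioma, joins the amino terminus of YAP, with its TEAD-binding domain, to the carboxy terminus of TFE3, with its helix-loop-helix and leucine zipper. The fusion therefore holds parts that could bring it to chromatin by either route.

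Chromatin immunoprecipitation followed by sequencing was done on SW872 cells, a human liposarcoma line. Both groups were SW872 cells transduced to express the construct stably with a Flag tag, one with TFE3 and one with YAP-TFE3, and both were collected near confluence. Each construct had 3 Flag libraries and 2 input libraries, and the study's methods give the triplicates as separate transductions. The cells also carry their own untagged TFE3 and YAP genes, whose products the Flag antibody does not see, and protein levels of the constructs were not analysed here. An active form of YAP, YAP5SA, had the same number of libraries and was used as a comparator with YAP sequence and no TFE3 sequence. IgG immunoprecipitations from empty vector (EV) cells, 2 libraries, gave a further peak list, which was compared with the TFE3 peaks by overlap only.

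Since the authors merged the replicates before calling peaks, each group is 1 list. There is no spread between replicates for any value, and no difference between constructs could be tested. Shares are given with 95% Wilson intervals and medians with exact 95% order-statistic intervals, and both cover counting error only. Each peak is described by 3 numbers. The fold enrichment is the fragment pileup at the summit, the highest point of the peak, over the local background of the control. The −log10 q is the caller's statistical strength and was used to rank peaks within a list. The summit fragments are the number of sequenced fragments over the summit, recovered from the fold enrichment and p-value. The TFE3 immunoprecipitation covered the genome with 8.61 fragments per base on average, that of YAP-TFE3 with 10.5 and that of YAP5SA with 10.7. At sites where the local background was that of the whole genome, the weakest called peak had 38 fragments at its summit for TFE3 and 37 for YAP-TFE3, which is 4.41 and 3.53 times the mean coverage. Relative to coverage, the weakest called TFE3 peak thus stood higher than the weakest called YAP-TFE3 peak.

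Most TFE3 sites were also sites of the fusion. The fusion list overlapped 237 of the 299 TFE3 peaks, or 79.3% (74.3% to 83.5%), and left out 62. The YAP5SA list is longer, at 3754 peaks, and overlapped 95 of the same 299 TFE3 peaks, or 31.8% (26.8% to 37.3%). The overlap with the fusion was seldom marginal. The smallest overlap of a kept pair was 132 bp, the median pair shared 335 bp, and the YAP-TFE3 peak covered a median of 99.0% of the TFE3 peak. The TFE3 summit lay inside the YAP-TFE3 peak in 236 of 237 pairs. When overlap of at least 50% of both peaks was required, 64.2% of TFE3 peaks were kept. Against the strongest 299 YAP-TFE3 peaks, as many as there were TFE3 peaks, 29.1% were kept.

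The stronger a TFE3 peak, the more often it was kept. Ranked by −log10 q and split into 4 parts of near equal size, the strongest part had 74 of 75 peaks kept, or 98.7% (92.8% to 99.8%). The following parts had 68 of 75, or 90.7% (82.0% to 95.4%), 54 of 74, or 73.0% (61.9% to 81.8%), and 41 of 75, or 54.7% (43.4% to 65.4%). The 63 strongest TFE3 peaks were all kept, and the first peak without the fusion ranked 64th. The share of the weakest part fell to 29.3% with 50% reciprocal overlap and to 6.67% against the strongest 299 YAP-TFE3 peaks. Overlap with YAP5SA was also most frequent in the strongest part, at 48 of 75 or 64.0% (52.7% to 73.9%), and was found for 9 of 74 in the third part and 15 of 75 in the weakest.

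**Figure D1:**
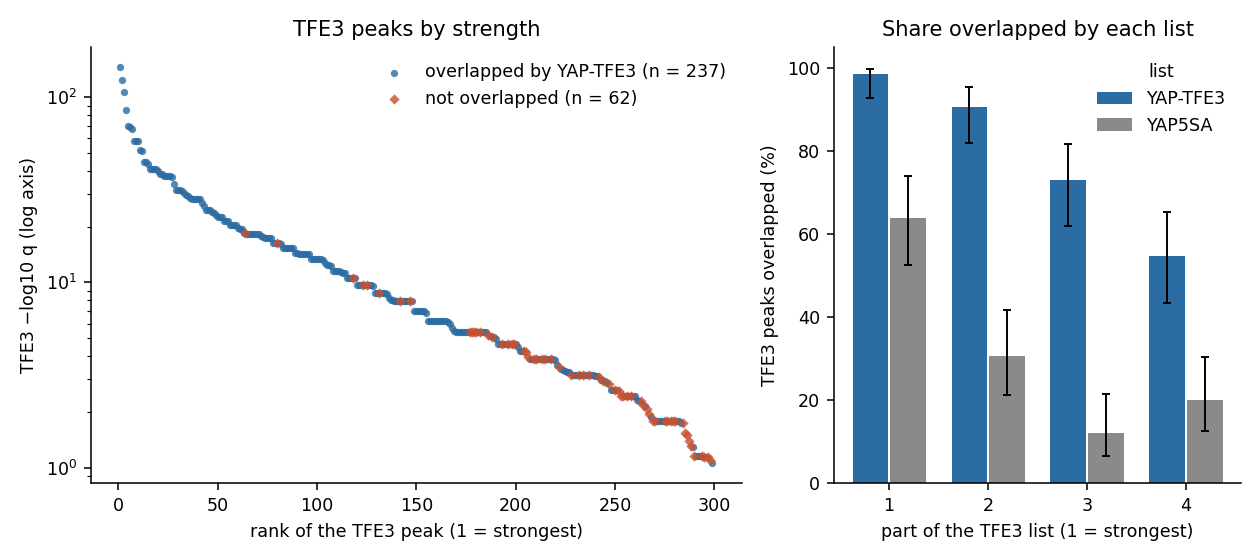
Left, each of the 299 TFE3 peaks by its rank (x axis) and its −log10 q (y axis, log scale), with peaks overlapped by a YAP-TFE3 peak as blue circles and the others as red diamonds. Right, the share of TFE3 peaks in each of 4 parts of the ranked list that a YAP-TFE3 peak (blue bars) or a YAP5SA peak (grey bars) overlapped, in percent, with 95% Wilson intervals as black lines. The red points begin at rank 64 and thicken towards the weak end, and the blue bars fall from 98.7% to 54.7%.

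Kept and not kept TFE3 peaks differed in strength within the TFE3 list itself. The median fold enrichment was 5.76 (5.38 to 6.28) in kept peaks and 4.10 (3.83 to 4.45) in peaks not kept. The highest fold enrichment was 27.9 among kept peaks and 7.95 among the others. The median −log10 q was 9.64 (7.89 to 12.4) against 3.16 (2.45 to 3.88), and the median width 363 bp (341 to 414) against 272.5 bp (256 to 293). At the summit, kept peaks had a median of 80 fragments and the others a median of 51. The ranges overlapped in every one of these measures. Of the 62 peaks not kept, 44 had q below 0.01 and 15 had a −log10 q over 5, so the group was not made up of peaks at the caller's limit alone.

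Where both constructs had a peak, the summits mostly lay close together. Pairs were defined by overlap, which itself limits the distance. The median distance between the TFE3 and YAP-TFE3 summits was 16 bp (13 to 18) over 237 pairs, with an interquartile range of 7 to 32 bp. Summits lay within 10 bp in 90 pairs, within 50 bp in 197 pairs, or 83.1% (77.8% to 87.4%), and more than 200 bp apart in 10 pairs. The shift had no preferred direction along the chromosome, with a median of -1 bp (-5 to 3). The distance grew as TFE3 peaks became weaker. Its median was 9.5 bp (7 to 12) in the strongest of the 4 parts, 15 bp (10 to 19) and 20 bp (13 to 28) in the next parts, and 36 bp (23 to 89) in the weakest. The YAP-TFE3 peak was the wider of the pair in 161 of 237 pairs, and the median widths were 463 bp for YAP-TFE3 and 363 bp for TFE3.

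**Figure D2:**
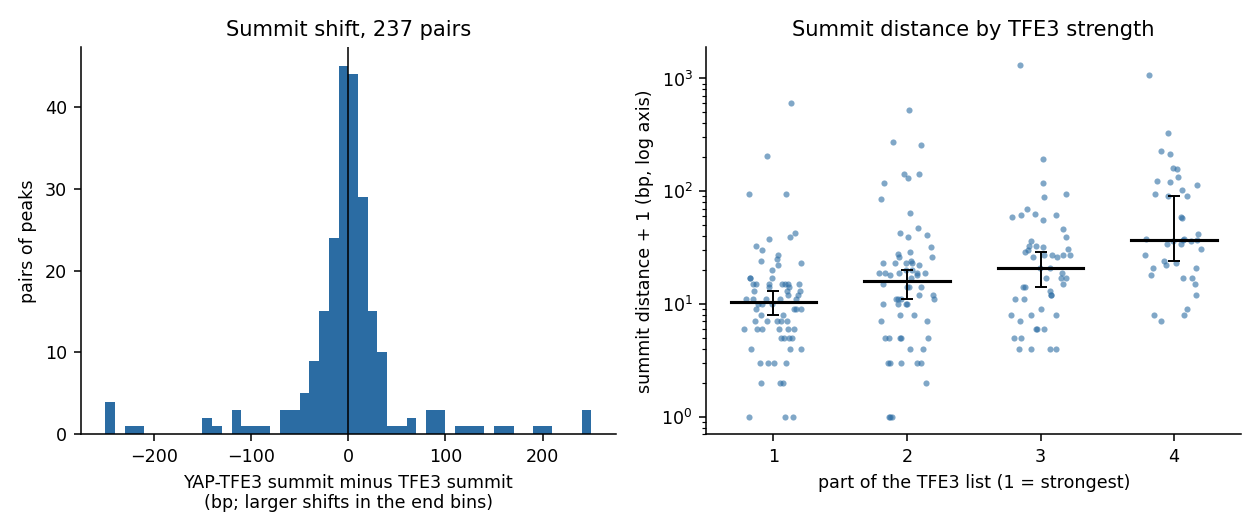
Left, histogram of the position of the YAP-TFE3 summit minus that of the TFE3 summit, in bp, for the 237 kept pairs, with pairs beyond 250 bp drawn in the end bins. Right, the summit distance plus 1 of each pair (bp, log axis) by part of the ranked TFE3 list, with the median as a bar and its exact 95% interval as a black line. Most pairs sit within 50 bp of 0, and the median distance rises from 9.5 bp in the strongest part to 36 bp in the weakest.

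The 3 pairs with the largest summit distances all lay under broad YAP-TFE3 peaks. On chromosome 9 a single YAP-TFE3 peak from 141121872 to 141123691 (GRCh37) covered 2 TFE3 peaks, which no other YAP-TFE3 peak did. The TFE3 peak from 141121892 to 141122798 had its summit 13 bp from the YAP-TFE3 summit, and the TFE3 peak from 141123440 to 141123752 had its summit 1317 bp away. Fold enrichments there were 2.96 and 2.77 for TFE3 and 3.79 for YAP-TFE3. On chromosome 5, the TFE3 peak from 1045672 to 1046141 was 470 bp wide under a YAP-TFE3 peak of 1513 bp, with summits 1081 bp apart and fold enrichments of 3.89 and 3.77. The other pair, also on chromosome 5, from 10096 to 11772 in the TFE3 list, had summits 608 bp apart and is described with the strongest sites. No TFE3 peak was overlapped by more than 1 YAP-TFE3 peak.

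Sites strong with TFE3 tended to be strong with the fusion. Across the 237 pairs, Spearman's rho between the fold enrichments was 0.71, and rho between the ranks in each list was 0.71. Both are descriptions across peaks of 1 cell line, which share the caller and the properties of the locus, and have no p-value. Against the strongest 299 YAP-TFE3 peaks, 87 pairs remained and both rhos were 0.50. The recovered summit fragments, which are not divided by the local background and so include it, gave a rho of 0.76 over 231 pairs. The fold enrichments were also close in size. The median YAP-TFE3 value was 6.25 and the median TFE3 value 5.76 at kept sites, while the median ratio within pairs, YAP-TFE3 over TFE3, was 0.997 (0.955 to 1.08). YAP-TFE3 was the higher in 117 of 237 pairs. The values of a pair lay within 1.5 times of each other in 196 pairs, or 82.7% (77.4% to 87.0%), and over 2 times apart in 14, of which 8 were higher in YAP-TFE3 and 6 in TFE3. As summit fragments over mean coverage the median ratio was 0.958 (0.910 to 1.01).

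The ratio moved with the strength of the TFE3 peak. In the strongest of the 4 parts the median log2 ratio of fold enrichment, YAP-TFE3 over TFE3, was -0.20 (-0.29 to -0.06). In the following parts it was -0.02 (-0.09 to 0.15), 0.12 (-0.07 to 0.26) and 0.18 (0.01 to 0.39). The grouping used the strength of the TFE3 peak, which also enters the ratio, so the grouping and the ratio were not independent.

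**Figure D3:**
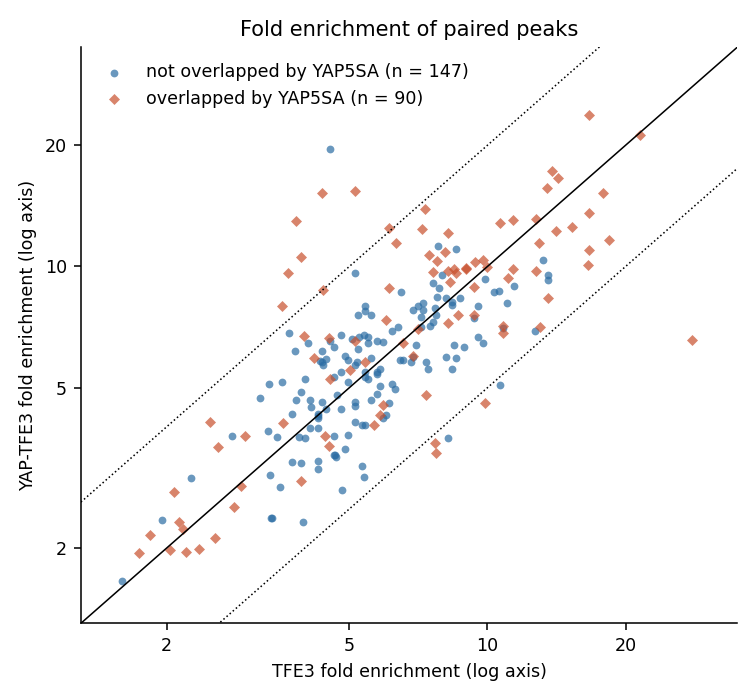
Fold enrichment of the TFE3 peak (x axis) and of its paired YAP-TFE3 peak (y axis), both on log axes, for 237 pairs. Red diamonds are the 90 pairs that a YAP5SA peak also overlapped, and blue circles the other 147. The solid line marks equal values and the dotted lines values 2 times apart, and 14 pairs lie outside the dotted lines.

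The strongest sites of the lists were shared but not in the same order. Of the 50 strongest TFE3 peaks, all were kept, 19 were paired with one of the 50 strongest YAP-TFE3 peaks and 41 with one of the strongest 299. The median YAP-TFE3 rank over those 50 sites was 93.5, and ranged from 1 to 827. Over all kept peaks the median YAP-TFE3 rank was 508 of 3336, and 167 of 237 were paired with one of the strongest 1000 YAP-TFE3 peaks.

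Positions are GRCh37, and no gene names were assigned, since no annotation of that build was used. The TFE3 peak with the highest −log10 q, 145, was on chromosome 2 from 109815830 to 109816250. It ranked 2 in the YAP-TFE3 list and the summits fell on the same base. Its fold enrichment was 2.20 for TFE3, 1.95 for YAP-TFE3 and 1.77 for YAP5SA, on a local background 211 times the genome mean in the TFE3 list, with 4009 fragments at the summit. Its rank went with a very high fragment number and a low enrichment. The third TFE3 peak was of the same kind. It lay on chromosome 5 from 10096 to 11772, close to the end of the chromosome, on a local background 24.9 times the genome mean. Its fold enrichment was 4.51 for TFE3, 6.65 for YAP-TFE3, where it ranked 1, and 4.54 for YAP5SA.

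The other 8 of the 10 strongest kept peaks had a local background within 1.3 times that of the genome, and TFE3 fold enrichments between 16.5 and 27.9. The highest TFE3 fold enrichment of all was at the second peak, on chromosome 21 from 43853447 to 43858016. The TFE3 peak there was 4570 bp wide, the widest of the kept peaks, and reached 27.9-fold with 316 fragments at the summit. YAP-TFE3 had a peak of 1711 bp at 6.58-fold with 108 fragments, and YAP5SA reached 8.76-fold. It was the pair with the lowest ratio, a log2 difference of -2.08, although the summits were 9 bp apart. On chromosome 11 from 85779806 to 85780754 the constructs were near equal, at 21.5-fold for TFE3 and 21.2-fold for YAP-TFE3, against 8.47-fold for YAP5SA. On chromosome 17 from 7137564 to 7138327 the fusion was the higher, at 23.8-fold against 16.7-fold for TFE3, with 6.06-fold for YAP5SA.

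The next 5 sites had lower values with the fusion than with TFE3. On chromosome 5 from 41904147 to 41904744 the fold enrichment was 17.9 for TFE3 and 15.3 for YAP-TFE3. On chromosome 19 from 49457769 to 49458389 it was 18.5 and 11.7, and on chromosome 16 from 57219915 to 57220508 it was 16.6 and 13.6. On chromosome 3 from 57678450 to 57679072 it was 16.6 for TFE3 and 11.0 for YAP-TFE3, and on chromosome 17 from 6915431 to 6915989 it was 16.5 and 10.1. The last of these had more summit fragments per mean coverage in YAP-TFE3, at 24.0, than in TFE3, at 21.6, on a higher local background in the YAP-TFE3 list. Its order therefore turned with the measure. YAP5SA peaks overlapped all 10 of these sites, and at the 8 sites with a background near that of the genome both TFE3 and YAP-TFE3 exceeded YAP5SA in fold enrichment, except on chromosome 21, where YAP5SA was above YAP-TFE3.

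A few pairs were far from equal. The highest ratio was on chromosome 2 from 33091812 to 33092046, with 4.55-fold for TFE3 and 19.6-fold for YAP-TFE3. This site, too, turned with the measure. The TFE3 list had a local background there 12.1 times the genome mean and the YAP-TFE3 list had the genome value, and the summit fragments per mean coverage were 56.2 for TFE3 and 24.6 for YAP-TFE3. The next pairs were among the weakest TFE3 peaks and kept their order on both measures. On chromosome 9 from 132096441 to 132096646 the fold enrichment was 4.36 for TFE3, which ranked 231, and 15.2 for YAP-TFE3, which ranked 8. Summit fragments per mean coverage were 5.46 and 24.2. On chromosome 7 from 104653209 to 104653417 the fold enrichment was 3.83 and 13.0, and the fragments per mean coverage 4.76 and 16.2. Both sites had a YAP5SA peak, at 9.69-fold and 6.61-fold, and the TFE3 summits were 160 and 119 bp from those of the fusion.

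Besides the chromosome 21 site, the lowest ratios were on chromosome 2 from 11093788 to 11094258, with 7.74-fold for TFE3 and 3.45-fold for YAP-TFE3, and on chromosome 10 from 47642268 to 47642711, with 8.21-fold and 3.75-fold. At the former the summit fragments per mean coverage were nearly equal, at 14.9 and 14.5, and the local backgrounds were not, at 1.64 and 4.02 times the genome mean. At the latter both backgrounds were those of the genome, and the fragments per mean coverage were 10.6 for TFE3 and 4.48 for YAP-TFE3.

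The TFE3 sites without a fusion peak were of moderate strength. The strongest was on chromosome 17 from 78075007 to 78075423, where the fold enrichment was 7.80, with 107 fragments at the summit and a −log10 q of 18.6. The next was on chromosome 1 from 35267682 to 35268186, at 7.95-fold with 88 fragments. No peak of another list overlapped either, and the nearest YAP-TFE3 peaks were 993306 and 229128 bp away. The sites that followed were on chromosome 10 from 69644197 to 69644463, on chromosome 6 from 160389862 to 160390138 and on chromosome 9 from 103114860 to 103115471, with fold enrichments of 6.46, 6.37 and 6.28. Further down, values of 6.02, 5.85 and 5.67 were found on chromosome 17 from 7792454 to 7792793, chromosome 8 from 133787497 to 133787701 and chromosome 11 from 75525652 to 75525951. The last of the 10 strongest were on chromosome 17, from 17140470 to 17140757 and from 75845543 to 75845852, both at 5.06-fold. The latter lay 409 bp from a YAP-TFE3 peak, while the other 9 were 75776 bp or more from one. None of the 10 was overlapped by YAP5SA, TAZ4SA, TAZ-CAMTA1, CAMTA1 or EV IgG peaks, and 9 of them had a local background equal to the genome value.

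The distance from a TFE3 peak not kept to the nearest YAP-TFE3 peak had a median of 138048 bp and ranged from 76 bp to 3115795 bp. It was at most 500 bp for 5 of the 62, at most 5000 bp for 13 and at most 100000 bp for 28. Allowing a gap of up to 500 bp between peaks would thus add 5 sites. Of the 37 that were at genome background, 25 had more than 1.5 times the 3.53 fragments per mean coverage of the weakest YAP-TFE3 peak at genome background, where the TFE3 list itself began at 4.41. Whether the fusion had fragments below the calling threshold at these sites cannot be read from lists of called peaks.

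The YAP5SA list divided the TFE3 sites further. Of the 237 kept peaks 90, or 38.0% (32.0% to 44.3%), were also overlapped by YAP5SA, and of the 62 not kept 5, or 8.06% (3.49% to 17.5%). Among TFE3 peaks overlapped by YAP5SA, 94.7% (88.3% to 97.7%) were kept, and among the other 204 it was 72.1% (65.5% to 77.8%). The largest class, 147 peaks or 49.2% (43.5% to 54.8%) of the TFE3 list, was shared with the fusion and not with YAP5SA. Within the strongest of the 4 parts 48 of 48 TFE3 peaks with YAP5SA and 26 of 27 without were kept, and within the weakest 12 of 15 and 29 of 60. TFE3 fold enrichment was highest in the class found with all 3 constructs, with a median of 7.39 (6.02 to 8.30). It was 5.41 (5.15 to 5.76) in the class shared with the fusion alone and 4.10 (3.83 to 4.53) in the 57 peaks in neither list. The 5 peaks shared with YAP5SA and not with the fusion had values between 1.81 and 4.71. With TFE3 peaks of local background over 2 times the genome mean left out, YAP5SA overlapped 3.77% of 53 peaks not kept.

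**Figure D4:**
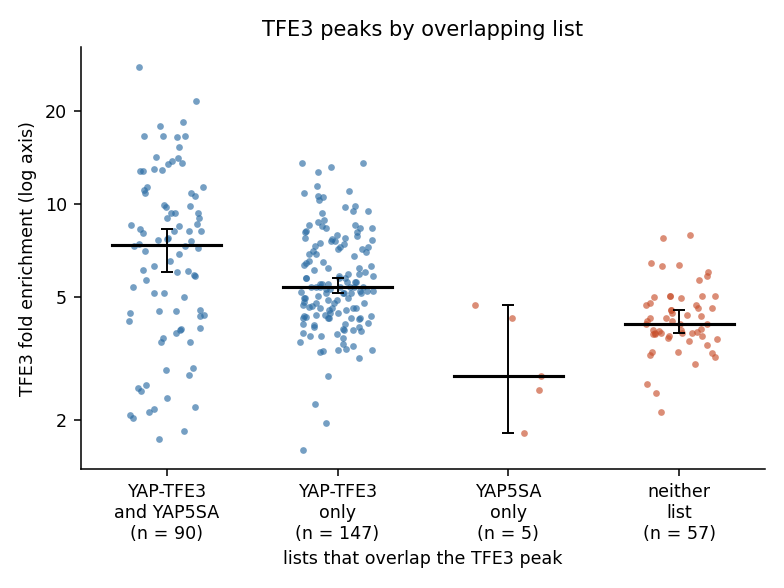
TFE3 fold enrichment (log axis) of each TFE3 peak by the lists that overlap it, with the median as a bar and its exact 95% interval as a black line. Blue points are kept peaks and red points are not. The median is 7.39 in the 90 peaks overlapped by both lists, 5.41 in the 147 overlapped by YAP-TFE3 and not YAP5SA, and 4.10 in the 57 in neither.

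Agreement between TFE3 and the fusion was of like size with and without YAP5SA. Spearman's rho of fold enrichment was 0.69 over the 90 pairs at YAP5SA sites and 0.69 over the 147 other pairs. The median summit distance was 14 bp (10 to 18) and 16 bp (13 to 21). The median log2 ratio, YAP-TFE3 over TFE3, was 0.11 (-0.04 to 0.20) and -0.02 (-0.09 to 0.05). The intervals of the medians overlapped in each case.

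At the 90 sites of all 3 constructs, the summits could be set against each other. The median distance was 14 bp from TFE3 to YAP-TFE3, 17.5 bp (11 to 24) from TFE3 to YAP5SA and 16 bp (12 to 24) from YAP-TFE3 to YAP5SA. The fusion's summit was nearer to that of TFE3 at 51 sites and nearer to that of YAP5SA at 38, with 1 tie, so the share nearer to TFE3 was 56.7% (46.4% to 66.4%). In fold enrichment YAP-TFE3 exceeded YAP5SA at 81 of the 90 sites and TFE3 did so at 75. The median YAP5SA value was 4.59, and the median log2 ratio of YAP-TFE3 over YAP5SA was 0.72 (0.48 to 0.88). YAP-TFE3 was the highest of the 3 at 47 sites.

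Counted from the fusion, TFE3 sites were a small part of the list and lay towards its top. Of 3336 YAP-TFE3 peaks 236, or 7.07% (6.25% to 7.99%), overlapped a TFE3 peak, while 96 of 3754 YAP5SA peaks, or 2.56% (2.10% to 3.11%), did. Of the strongest 299 peaks of each list, 86 YAP-TFE3 peaks, or 28.8% (23.9% to 34.1%), and 9 YAP5SA peaks, or 3.01% (1.59% to 5.62%), overlapped a TFE3 peak. With the YAP-TFE3 list split by −log10 q into 10 parts, the share was 26.9% (22.5% to 31.9%) in the strongest, 12.6% in the next and 10.2% in the third. From the fourth part on it was 4.49% or less. The strongest part held 90 of the 236 YAP-TFE3 peaks with TFE3. The share overlapped by YAP5SA also fell along the list, from 70.4% (235 of 334) in the strongest part to 20.4% (68 of 334) in the weakest.

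**Figure D5:**
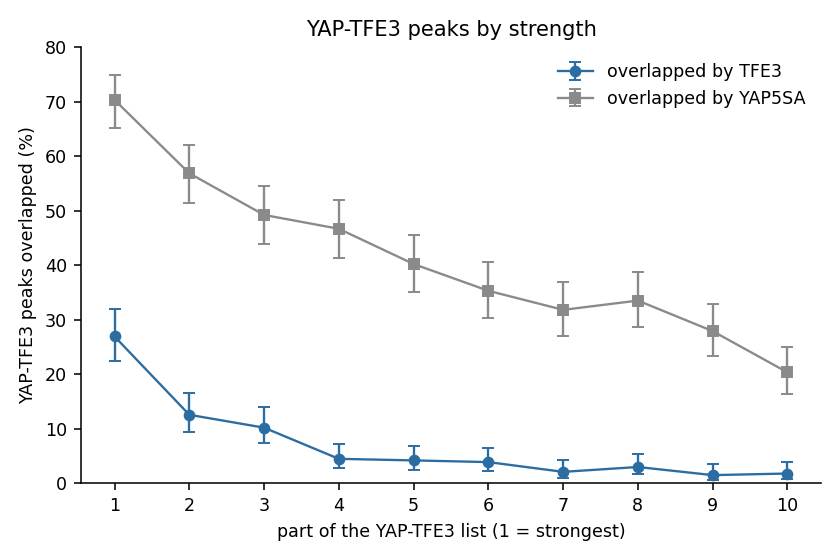
Share of YAP-TFE3 peaks, in percent, that a TFE3 peak (blue circles) or a YAP5SA peak (grey squares) overlapped, by part of the 3336 YAP-TFE3 peaks, in 10 parts ranked by −log10 q (1 is the strongest), with 95% Wilson intervals. The TFE3 share is 26.9% in the first part and 4.49% or less from the fourth on, and the YAP5SA share falls from 70.4% to 20.4%.

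Fusion peaks with a TFE3 peak had a median fold enrichment of 6.28 (5.78 to 6.68), against 4.35 (4.27 to 4.42) in the 3100 without. Split by overlap with the TFE3 and YAP5SA lists, the median was 8.37 (6.83 to 9.76) in the 91 fusion peaks with TFE3 and YAP5SA. It was 5.78 in the 145 with TFE3 and not YAP5SA, 4.81 (4.72 to 4.95) in the 1285 with YAP5SA and not TFE3, and 4.08 (4.05 to 4.12) in the 1815 with neither. Widths followed the same order at the ends, with medians of 620 bp in peaks with both and 302 bp in peaks with neither. Median widths were 394 bp in peaks with TFE3 alone and 393 bp in peaks with YAP5SA alone. YAP5SA overlapped 38.6% (32.6% to 44.9%) of fusion peaks with TFE3 and 41.5% (39.7% to 43.2%) of those without. The groups differed in strength, so this is not a comparison at like strength. The strongest of the 10 parts, with a YAP5SA share of 70.4% against 20.4% in the weakest, held 90 of the 236 with TFE3. Among the strongest 299 fusion peaks, 56 had TFE3 and YAP5SA, 30 TFE3 alone, 155 YAP5SA alone and 58 neither.

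Some of the strongest fusion peaks had no TFE3 counterpart. The first was on chromosome 19 from 50639909 to 50640702, ranked 4, at 17.1-fold with 346 fragments, and the nearest TFE3 peak was 1181519 bp away. The next was on chromosome 19 from 48423488 to 48424270, ranked 7, at 18.2-fold, with a TFE3 peak 19958 bp away. The last of the 3 was on chromosome 5 from 1327388 to 1328757, ranked 10, at 15.8-fold. All 3 had a YAP5SA peak, at 5.20-fold, 8.48-fold and 28.1-fold, so that on chromosome 5 the YAP5SA value was above that of the fusion.

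Few TFE3 peaks were overlapped by the TAZ4SA, TAZ-CAMTA1 or full-length CAMTA1 lists, which are shorter than those of YAP-TFE3 and YAP5SA. The 7 lists held 9899 peaks on chromosomes 1 to 22 and X. The TAZ4SA, TAZ-CAMTA1 and CAMTA1 lists together held fewer of them than the YAP-TFE3 list alone, at 3336. The lists of TFE3, YAP-TFE3 and YAP5SA were labelled chip, and those of TAZ4SA, TAZ-CAMTA1 and CAMTA1 were labelled FLAG. The labels do not say what this difference stands for. A technical difference between these sets of lists cannot be told apart from a difference between constructs. The counts that follow were not scaled to list length. Among the 237 kept TFE3 peaks, TAZ4SA overlapped 11, TAZ-CAMTA1 10 and CAMTA1 7, and among the 62 not kept each overlapped 0, which allows a share of up to 4.84% by the limit of 3 counts in 62 and of up to 5.83% by the Wilson interval. EV IgG peaks overlapped 0 of the 299 TFE3 peaks, but that list held 29 peaks, of which 25 lay on unplaced scaffolds, so it could hardly overlap more and is a weak check of background on chromosomes.

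A local background over 2 times the genome mean was found at 24 of 234 kept TFE3 peaks, or 10.3% (6.99% to 14.8%), and at 9 of 62 not kept, or 14.5% (7.83% to 25.3%). At 16 of the 24 kept sites the YAP-TFE3 list also had a background over 2 times its genome mean. TFE3 fold enrichment at the 33 high-background peaks had a median of 2.77, against 5.58 at the 263 known to have a lower background. Of those 263 peaks 79.8% (74.6% to 84.3%) were kept, with a median summit distance of 14 bp and a rho of fold enrichment of 0.67. With peaks of unrecovered background also left in, 266 peaks remained. The share kept was then 80.1% (74.9% to 84.4%), the median summit distance 16 bp and rho 0.69.

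The chromosomes contributed unevenly. Chromosome 5 held 36 TFE3 peaks, of which 26 were kept, chromosome 11 held 30 with 23 kept, and chromosome 1 held 24 with 19 kept. The shares kept there were 72.2%, 76.7% and 79.2%, against 79.3% over all 299 TFE3 peaks. No intervals were computed by chromosome, so these shares are not read as differences between chromosomes. Chromosome 5 also held the most YAP-TFE3 peaks, 534 of 3336, so its high count was not particular to TFE3. The fewest were kept, for their number, on chromosome 10, with 4 of 8, and chromosome 13, with 4 of 9. On chromosomes 15, 22 and X, with 5, 6 and 4 TFE3 peaks, each peak was kept. Chromosome 18 had 35 YAP-TFE3 peaks and 0 of the 299 TFE3 peaks, which allows a share of up to 1.00%. Chromosome 20 held 8.06% of the YAP-TFE3 peaks, or 269, and 4.01% of the TFE3 peaks, or 12. The highest and lowest shares kept that are named here each rested on 9 TFE3 peaks or fewer.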

How the data were processed

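Flag libraries of SW872 cells expressing TFE3 or YAP-TFE3 (6 of 34 libraries in the series) were analysed as the peak lists that the authors deposited, 1 per construct. Per the study's methods, the authors pooled the reads of replicates, trimmed them with Atropos, aligned them to GRCh37 with BWA-MEM, removed reads with several placements and greylisted regions, and called peaks from whole fragments with macs2 at a permissive q. The submitters' notes name bcl2fastq and hg38, but 3 TFE3 and 14 YAP-TFE3 peaks end past the GRCh38 chromosome ends, so positions are GRCh37. The control behind the local background, and which of a pair of sonicators sheared which library, are not given in the sources used here.

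The deposited fold enrichment is a ratio, and the authors gave p-values and q-values as −log10. From these, peaks were ranked by −log10 q, overlaps of at least 1 bp were counted, and each kept TFE3 peak was paired with the overlapping YAP-TFE3 peak of nearest summit. Summit fragments were recovered where 1 whole number (tolerance 0.02) met both fold enrichment and p-value, in 296 of 299 TFE3 and 3330 of 3336 YAP-TFE3 peaks. On data simulated with the same formulas, 100% of 272 TFE3-like peaks and 99.6% of 905 YAP-TFE3-like peaks came out right and 0% wrong. This tests the recovery step only, and cannot show whether the deposited values follow those formulas. Mean coverage is the genome background over the caller's scaling (0.355 and 0.356).

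Named sites were the 10 kept and 10 not kept TFE3 peaks of highest −log10 q, the 3 highest and 3 lowest ratios, the 3 largest summit distances, the 3 strongest YAP-TFE3 peaks without TFE3, and peaks overlapping 2 or more. The members, lists and rules were chosen with earlier results of these data known. Peaks on unplaced scaffolds were left out of the comparison, and genes, motifs and sequences were not analysed here. Alternatives were other overlaps, q, ranking, pairing and list length, with scaffolds, and without high-background peaks. Computation was in Python 3.11.15 with scipy 1.17.1, numpy 2.4.6, matplotlib 3.10.9 and pandas 2.3.3.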

Additional observations from a re-analysis of the deposited data

Results flagged for a closer look

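Peaks on unplaced GRCh37 scaffolds were outside the comparison and were more numerous than in the EV IgG control. The TFE3 list held 119 peaks there against 25 in the EV IgG list, and 100 of the 119 were not overlapped by an EV IgG peak. Of the 119, 94.1% (88.4% to 97.1%) were overlapped by a YAP-TFE3 peak. Their median fold enrichment was 1.94, on a median local background 63.5 times the genome mean, and 58 of them lay on a single scaffold, GL000199.1. The EV IgG list came from 2 libraries and the TFE3 list from 3, and their depths were not compared.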

How the results depend on the processing

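No paired analysis was possible because each list came from merged replicates, and leaving out 1 replicate was equally out of reach. The 16 results were recomputed under 10 alternatives, of which leaving out peaks of high local background was chosen after seeing the data. Of 124 values, 94 stayed within the interval of the reported value (for rho, within 0.1), 30 moved beyond it and 0 reversed. With 50% reciprocal overlap the share of TFE3 peaks kept was 64.2%, of the weakest of 4 parts 29.3%, of YAP-TFE3 peaks with TFE3 5.76%, of kept peaks in YAP5SA 31.3%, and the median fold enrichment of kept peaks 6.42. Against the strongest 299 YAP-TFE3 peaks, by construction a shorter list, the share kept was 29.1%, of the strongest and weakest parts 74.7% and 6.67%, and of those YAP-TFE3 peaks 28.8% had TFE3. There the median summit distance was 10 bp with 90.8% within 50 bp, both rhos 0.50, the median log2 ratio 0.16 by fold enrichment and 0.052 by fragments. YAP5SA overlapped 64.4% of kept peaks and 18.4% of those not kept, and median fold enrichments were 8.21 and 4.71 for TFE3 peaks kept and not kept, and 9.61 and 8.94 for YAP-TFE3 peaks with and without TFE3. With scaffolds included the shares were 83.5% of TFE3 peaks, 9.59% of YAP-TFE3 peaks, 100% of the strongest part and 53.6% of kept peaks in YAP5SA, the median fold enrichments of kept TFE3 peaks and of YAP-TFE3 peaks with TFE3 were 4.43 and 4.69, and rho of fold enrichment was 0.89. With q below 0.01, the median fold enrichment was 4.49 in TFE3 peaks not kept and 4.499 in YAP-TFE3 peaks without TFE3. Ranking, pairing, the 500 bp gap and the background filter moved none of the values. The weakest YAP-TFE3 peak called at genome background stood at 3.53 times mean coverage, and how depth set the calls was not tested.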
